A study of Homo sapiens with 12 samples.

Results

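The genes described here are 40 genes of the cell cycle and of DNA replication, out of 31720 genes measured in AHR knockout and control breast cancer cells. They were taken as a fixed list of cyclins, cyclin-dependent kinases (CDKs) and their inhibitors, replication factors and mitotic proteins, and the rule uses no measured value, although the list was drawn up with earlier results of these data known. The files name rows by Ensembl gene ID, and the symbols come from that list. All 40 genes had a row, and 0 of them had a mean signal below that of the median gene.

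The 12 arrays fell into 4 groups of 3. SUM149 AHR KO cells and MDA-MB-231 AHR KO cells had been transduced with a lentivirus that carried Cas9 and guide RNAs against the first exon of AHR, the gene of the aryl hydrocarbon receptor, a ligand-activated transcription factor. SUM149 Cas9 control cells and MDA-MB-231 Cas9 control cells carried Cas9, per the study's methods, with no guide. Both lines come from triple-negative breast cancers, SUM149 from an inflammatory one, and they were grown in different media, that of SUM149 containing insulin and hydrocortisone. No ligand treatment is given for any group. Transduced cells were plated by serial dilution and selected with puromycin, and it is not given whether the 3 biological replicates of a group were separate clones or cultures of 1 clone. Loss of AHR therefore cannot be told apart from other differences between 1 knockout population and its control, and the p-values measure the spread between these arrays only. The expression of AHR itself was not analysed here.

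Cells pass from G1 into S phase when D cyclins with CDK4 or CDK6, and then E cyclins with CDK2, inactivate the retinoblastoma protein and release E2F factors. Origins are licensed in G1 by CDC6 and CDT1, which load the MCM2-7 helicase, and they fire in S phase. The cyclin A and B kinases then carry the cell through G2 into mitosis, where mitotic kinases, the spindle checkpoint and motor proteins separate the chromosomes. Transcripts of most of these genes are far higher in dividing cells than in resting cells, and many peak in 1 phase, so that in bulk RNA a change in level per cell cannot be told apart from a change in the share of cells in a phase. The AHR has long been studied in this setting because it can bind the retinoblastoma protein and can act on CDK inhibitor genes.

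Promoter windows show what the genes share beside their roles. RefSeq windows of 300 bases (build GRCh38.p14), with 250 bases before an annotated start and 50 from it on, were matched by symbol for 31 of the 40 genes. They held 40 windows in all, as 7 genes had more than 1. MCM4, MCM5, AURKA, CCNE2, CCND1, CCND2, CDK2, TTK and FOXM1 were not matched. The windows of 5 genes are printed 5′ to 3′ on the gene's own strand because these genes stand for the patterns that follow: CDKN1A fell in both lines, CDKN1B and CDC6 differed between the lines, and CCNB2 and MKI67 are mitotic and proliferation genes that rose in SUM149. Capitals mark matches, on either strand, to the E2F core (TTNNCGC, with C or G at each N), the cell cycle homology region or CHR (TTTGAA), the CCAAT box (CCAAT) and the core of the AHR response element (GCGTG). The windows lie at chr6:36678464-36678763 (plus strand) for CDKN1A, chr12:12717118-12717417 (plus) for CDKN1B, chr17:40287629-40287928 (plus) for CDC6, chr15:59104896-59105195 (plus) for CCNB2 and chr10:128126374-128126673 (minus) for MKI67.
CDKN1A: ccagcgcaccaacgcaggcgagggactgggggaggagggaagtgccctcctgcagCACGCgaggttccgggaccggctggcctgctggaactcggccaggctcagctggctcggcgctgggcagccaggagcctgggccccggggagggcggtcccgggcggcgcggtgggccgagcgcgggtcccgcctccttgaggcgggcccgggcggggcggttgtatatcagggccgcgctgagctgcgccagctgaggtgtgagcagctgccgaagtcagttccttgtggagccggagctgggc
CDKN1B: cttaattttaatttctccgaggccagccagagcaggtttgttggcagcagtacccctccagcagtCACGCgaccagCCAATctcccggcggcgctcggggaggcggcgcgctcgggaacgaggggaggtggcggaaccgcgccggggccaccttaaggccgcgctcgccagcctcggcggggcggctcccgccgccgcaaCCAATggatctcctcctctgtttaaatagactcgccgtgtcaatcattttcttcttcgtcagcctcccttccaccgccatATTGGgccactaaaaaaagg
CDC6: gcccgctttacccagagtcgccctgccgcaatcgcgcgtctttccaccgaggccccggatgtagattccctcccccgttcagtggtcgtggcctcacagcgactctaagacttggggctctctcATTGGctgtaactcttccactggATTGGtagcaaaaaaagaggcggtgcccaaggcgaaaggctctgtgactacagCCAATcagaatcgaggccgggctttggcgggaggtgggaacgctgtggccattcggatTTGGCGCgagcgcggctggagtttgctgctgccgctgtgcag
CCNB2: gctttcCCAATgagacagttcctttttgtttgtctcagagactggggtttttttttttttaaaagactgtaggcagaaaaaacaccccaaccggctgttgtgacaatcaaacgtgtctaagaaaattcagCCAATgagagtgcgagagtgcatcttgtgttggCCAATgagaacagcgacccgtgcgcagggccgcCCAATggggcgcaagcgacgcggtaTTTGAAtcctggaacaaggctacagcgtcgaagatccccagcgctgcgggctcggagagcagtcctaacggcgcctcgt
MKI67: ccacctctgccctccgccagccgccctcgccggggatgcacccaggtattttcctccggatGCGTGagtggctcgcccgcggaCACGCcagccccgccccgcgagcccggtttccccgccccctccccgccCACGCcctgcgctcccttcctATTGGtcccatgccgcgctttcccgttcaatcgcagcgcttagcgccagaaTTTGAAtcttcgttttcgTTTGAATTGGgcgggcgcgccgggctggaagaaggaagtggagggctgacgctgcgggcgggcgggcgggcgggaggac

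In CCNB2, a CHR began 29 bases before the start, with CCAAT boxes beginning 54, 87, 120 and 244 bases before it. MKI67 held CHR matches 47 and 29 bases before its start, the second of which shares bases with a CCAAT box on the other strand. CDC6 held an E2F core 8 bases after its start. The CDKN1A window held 1 match, an AHR core on the other strand 195 bases before the start, and the CDKN1B window held an AHR core 185 bases before the start and 3 CCAAT boxes.

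The motifs were counted by role, without a test. An E2F core was found in 6 of 6 origin licensing genes with a window, in 2 of 14 G2 and mitotic genes (CDK1 and CCNB1) and in 4 of the 11 others (PCNA, E2F1, RRM2 and TYMS), against 13% of all 35116 windows. A CHR was found in 9 of 14 G2 and mitotic genes (CDK1, CCNB2, MKI67, TOP2A, CDC20, BUB1B, PLK1, CENPF and KIF11) and in 0 of the 17 other genes with a window, against 15.2% of all windows. CCAAT boxes were in 12 of the 14 G2 and mitotic genes and in 34.6% of all windows, and the AHR core was in 23 of 31 genes and in 36.5% of all windows. A gene with several windows was counted if any held the motif. Counted by window, 35% of the 40 held an E2F core, 25% a CHR, 70% a CCAAT box and 65% an AHR core. A match is a run of letters and not a measured binding site.

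**Figure D1:**
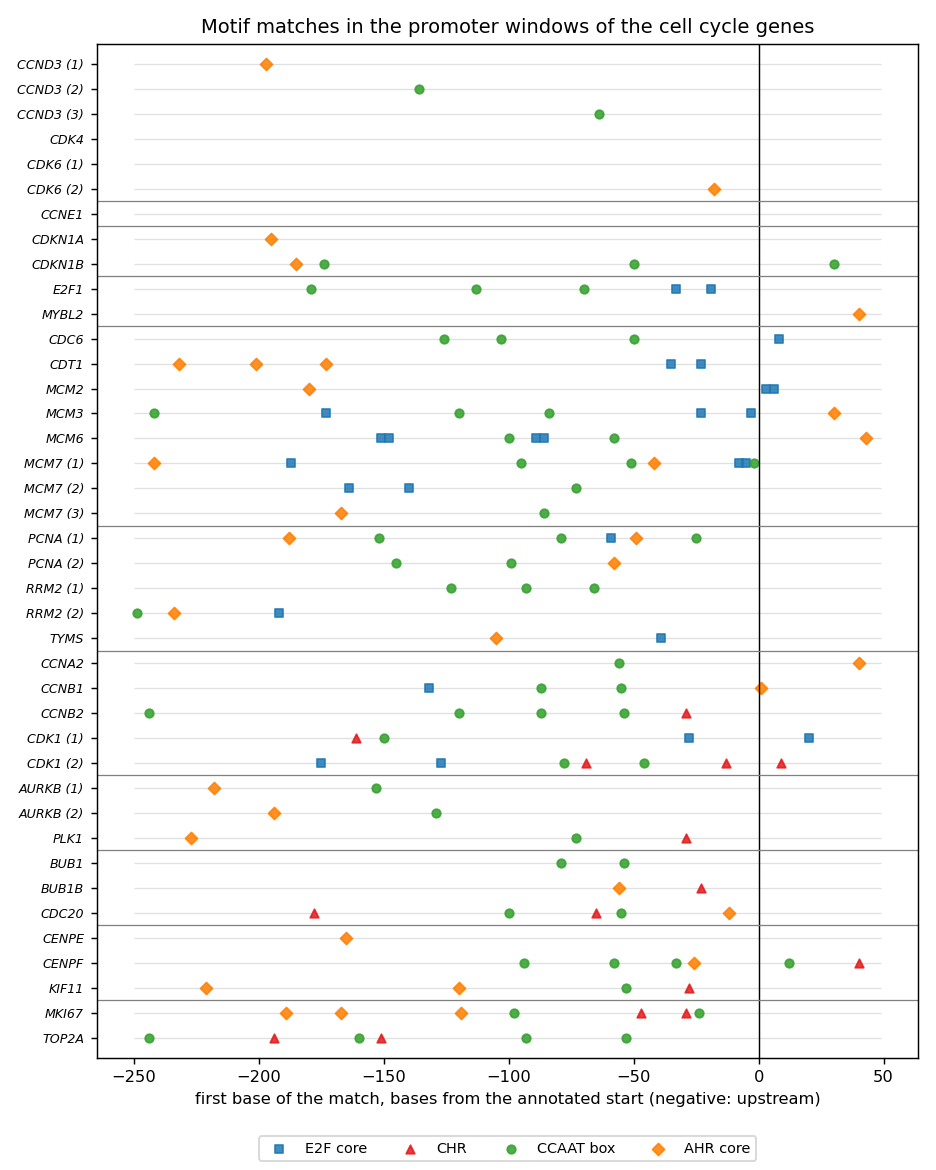
Matches to 4 motifs in the 40 promoter windows of 31 cell cycle genes. The x axis gives the distance of the first matched base from the annotated start in bases and each row is 1 window, ordered by role, with the window number in brackets where a gene has several. E2F cores lie in 12 genes, 6 of them licensing genes, and CHR matches lie in 9 genes, all of G2 and mitosis.

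In SUM149 AHR KO cells, CDKN1A, CCND1, CCND3, CDK6, CCNE1 and CCNE2 were among the genes called lower. Of the 17 G2 and mitotic genes, 9 were called higher, 1 was called lower (AURKB) and 7 were not called. Of the 40 genes, 12 were higher and 9 lower at an adjusted p of 0.05 or less (limma, Benjamini-Hochberg over all genes), while 8.59% of all genes were called higher and 8.23% lower in this comparison (16.8% in either direction). All 3 SUM149 AHR KO arrays lay above all 3 controls for 19 of the genes, against 16.7% of all genes, and below them for 13, against 15.1%. The median change over the 40 genes was 0.10 on the log2 scale, against 0.01 over all genes, since the changes ran in both directions. In MDA-MB-231, 1 gene was called lower and 1 higher, against 2.19% of all genes lower and 1.73% higher (3.92% in either direction). Every MDA-MB-231 AHR KO array lay above every control for 16 of the genes, against 11.2% of all genes, and below them for 4, against 10.9%. When limma's prior variance was allowed to depend on the signal (trend and robust options), MDA-MB-231 had 3 genes lower and 9 higher, and SUM149 had 19 higher. Both MDA-MB-231 calls were lost when each line was fitted on its own arrays. Within a line, only CDKN1A and CDK6 were called with a change of 1.5-fold or more, both in SUM149. The shares of all genes given here and below are not matched for signal or spread. Median SDs within groups were 0.032 to 0.058 for the 40 genes and 0.108 to 0.115 over all genes. A change of a given size can therefore pass the test more readily in these 40 genes. Without the 10573 dimmest genes, 21147 remained, of which 2991 were called higher and 2952 lower in SUM149. Of the 40 genes, all kept, 15 were then higher and 11 lower in that line.

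**Figure D2:**
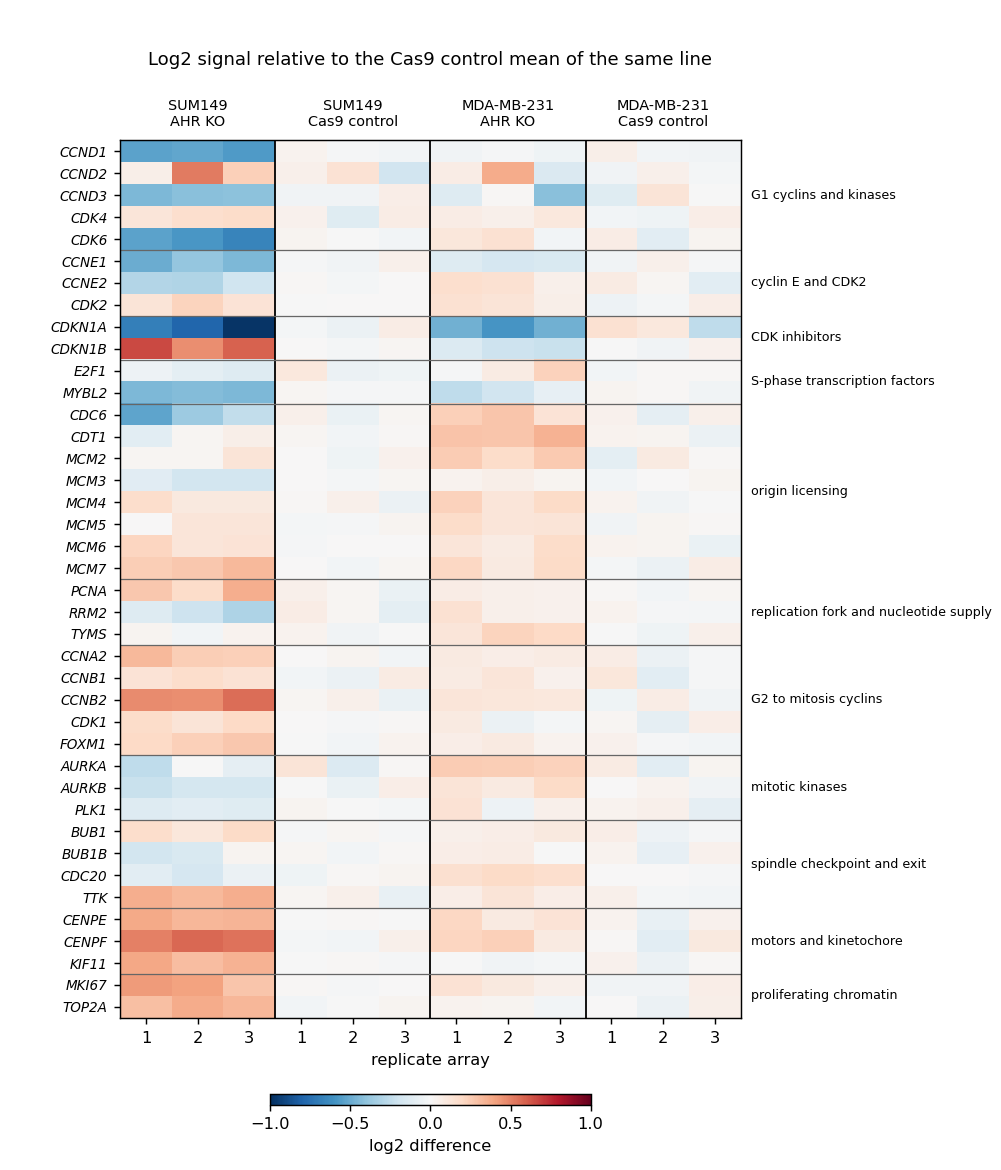
Log2 signal of each of the 40 genes (rows, ordered by role) on each of the 12 arrays (columns), minus the Cas9 control mean of the same line. Red is above and blue below that mean, and the SUM149 AHR KO columns hold the deepest colours, from CDKN1A, CDK6 and CCND1 below it to CDKN1B, CENPF and CCNB2 above it.

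CDKN1A (ENSG00000124762_at), which encodes the CDK inhibitor p21, was the gene called lower in both lines, a call made for 0.631% of all genes. Its log2 signals were 5.59, 5.48 and 5.29 in SUM149 AHR KO cells, against 6.26, 6.21 and 6.35 in SUM149 Cas9 control cells. The groups were well apart, and the fall by 0.82 on the log2 scale (SE 0.11, adjusted p = 0.000331) came to 1.76-fold. The signals were 6.0, 5.89 and 6.0 in MDA-MB-231 AHR KO cells, against 6.63, 6.58 and 6.22 in MDA-MB-231 Cas9 control cells. Here the groups did not overlap either, but control replicate 3 lay closer to the knockout arrays than to its own group. The log2 change was -0.51 (SE 0.11, adjusted p = 0.0254), and it ranged from -0.64 without MDA-MB-231 control replicate 3 to -0.44 without another array. That call was lost on leaving out either of the other MDA-MB-231 controls or any MDA-MB-231 AHR KO array (highest adjusted p 0.096). Across both lines CDKN1A fell by 0.67 (SE 0.09, adjusted p = 0.00172), a call kept in all 19 alternatives that could be run. The effect was 0.30 lower in SUM149 than in MDA-MB-231, with a 95% interval of the difference from -0.65 to 0.04 (adjusted p = 0.265).

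The other CDK inhibitor, p27, encoded by CDKN1B (ENSG00000111276_at), moved in opposite directions. In SUM149 AHR KO cells its signals were 8.25, 8.05 and 8.18, against 7.59, 7.57 and 7.60 in the controls, a rise of 0.57 (SE 0.06, adjusted p = 9.07e-05). They were 8.29, 8.21 and 8.20 in MDA-MB-231 AHR KO cells, against 8.41, 8.39 and 8.46 in the controls, a difference of -0.19 that did not pass the test (SE 0.06, adjusted p = 0.16). All 3 AHR KO arrays lay above the controls in SUM149 and below them in MDA-MB-231. The effects differed by 0.76 between SUM149 and MDA-MB-231 (SE 0.09, adjusted p = 0.000266), the widest gap among the 40 genes. In level, SUM149 controls were the lowest of the 4 groups, and the other 3 lay between 8.05 and 8.46.

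Of the 5 G1 cyclins and kinases, 3 fell in SUM149 AHR KO cells, where 8.23% of all genes were called lower. In MDA-MB-231, 0 of the 5 were called, against 3.92% of all genes in either direction. There 0 of the 5 had an unadjusted p below 0.05 in limma, while 13 of the 40 genes were higher and 4 lower at that level. The share of all genes at that level was not computed. CCND1 (ENSG00000110092_at), the gene of cyclin D1, had signals of 8.28, 8.30 and 8.25 in SUM149 AHR KO cells, against 8.85, 8.81 and 8.79 in the controls. With replicates this close, the fall by 0.54 had the lowest adjusted p of the 40 genes in that line (SE 0.05, adjusted p = 4.08e-05). In MDA-MB-231 the CCND1 signals overlapped, with 9.32, 9.35 and 9.32 in AHR KO cells and 9.42, 9.33 and 9.33 in controls, and the difference of -0.03 had a 95% interval from -0.15 to 0.09. CDK6 (ENSG00000105810_at), a catalytic partner of the D cyclins, had signals of 7.63, 7.58 and 7.49 in SUM149 AHR KO cells, against 8.19, 8.16 and 8.13 in the controls. It fell by 0.59 in SUM149 (SE 0.07, adjusted p = 0.000167), or 1.51-fold. In MDA-MB-231 the CDK6 groups overlapped, with 7.52, 7.56 and 7.38 in AHR KO cells and 7.48, 7.30 and 7.43 in controls. CCND3, for cyclin D3, fell by 0.43 in SUM149 (SE 0.10, adjusted p = 0.0139), a call lost without SUM149 control replicate 3 (adjusted p = 0.0541). CDK4, the other D cyclin kinase, and CCND2 were not called in either line. CCND2 was the dimmest gene of the set, with signals from 3.42 to 4.29, and had the widest standard error (0.15).

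CCNE1 (ENSG00000105173_at) encodes cyclin E1, the cyclin that activates CDK2 at the entry to S phase. Its signals were 7.33, 7.43 and 7.37 in SUM149 AHR KO cells, against 7.81, 7.78 and 7.87 in the controls, a fall by 0.45 (SE 0.06, adjusted p = 0.000227). They were 7.18, 7.14 and 7.16 in MDA-MB-231 AHR KO cells, against 7.28, 7.36 and 7.29 in the controls. Neither line showed overlap, but the MDA-MB-231 difference of -0.15 did not pass the test (adjusted p = 0.213). The fit across both lines called CCNE1 lower by 0.30 (SE 0.06, adjusted p = 0.0225), a call lost without any of the 6 SUM149 arrays (highest adjusted p 0.0619). CCNE2, for cyclin E2, was lower by 0.26 in SUM149 (SE 0.07, adjusted p = 0.0175), with signals of 7.25 to 7.35 in AHR KO cells and 7.53 to 7.56 in controls. That call was lost without SUM149 control replicate 1 or 3 or AHR KO replicate 1 or 2 (highest adjusted p 0.0622). CDK2 itself was not called in either line. Averaged over the 5 G1 genes and these 3, the signal relative to the control mean was -0.25, -0.16 and -0.22 on the SUM149 AHR KO arrays and 0.04, 0.09 and -0.07 on the MDA-MB-231 AHR KO arrays. These means include the dim CCND2, at 0.06, 0.52 and 0.24 on the SUM149 AHR KO arrays. On the MDA-MB-231 AHR KO arrays CCND2 lay at 0.08, 0.37 and -0.15.

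MYBL2 (ENSG00000101057_at), a transcription factor that activates late cell cycle genes, was the third gene with every AHR KO array below the controls in both lines, beside CDKN1A and CCNE1. This held for 2.64% of all genes. Its signals were 9.76, 9.78 and 9.76 in SUM149 AHR KO cells, against 10.23, 10.20 and 10.19 in the controls, and it fell by 0.44 (SE 0.06, adjusted p = 0.000294). In MDA-MB-231 AHR KO cells the signals were 8.66, 8.72 and 8.82, against 8.93, 8.92 and 8.87 in the controls, a difference of -0.18 (adjusted p = 0.147). Across both lines it fell by 0.31 (SE 0.06, adjusted p = 0.0158), and the call was kept without each of the 12 arrays in turn. E2F1, the S-phase activator, was not called in any knockout comparison, with differences of -0.09 in SUM149 and 0.10 in MDA-MB-231.

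**Figure D3:**
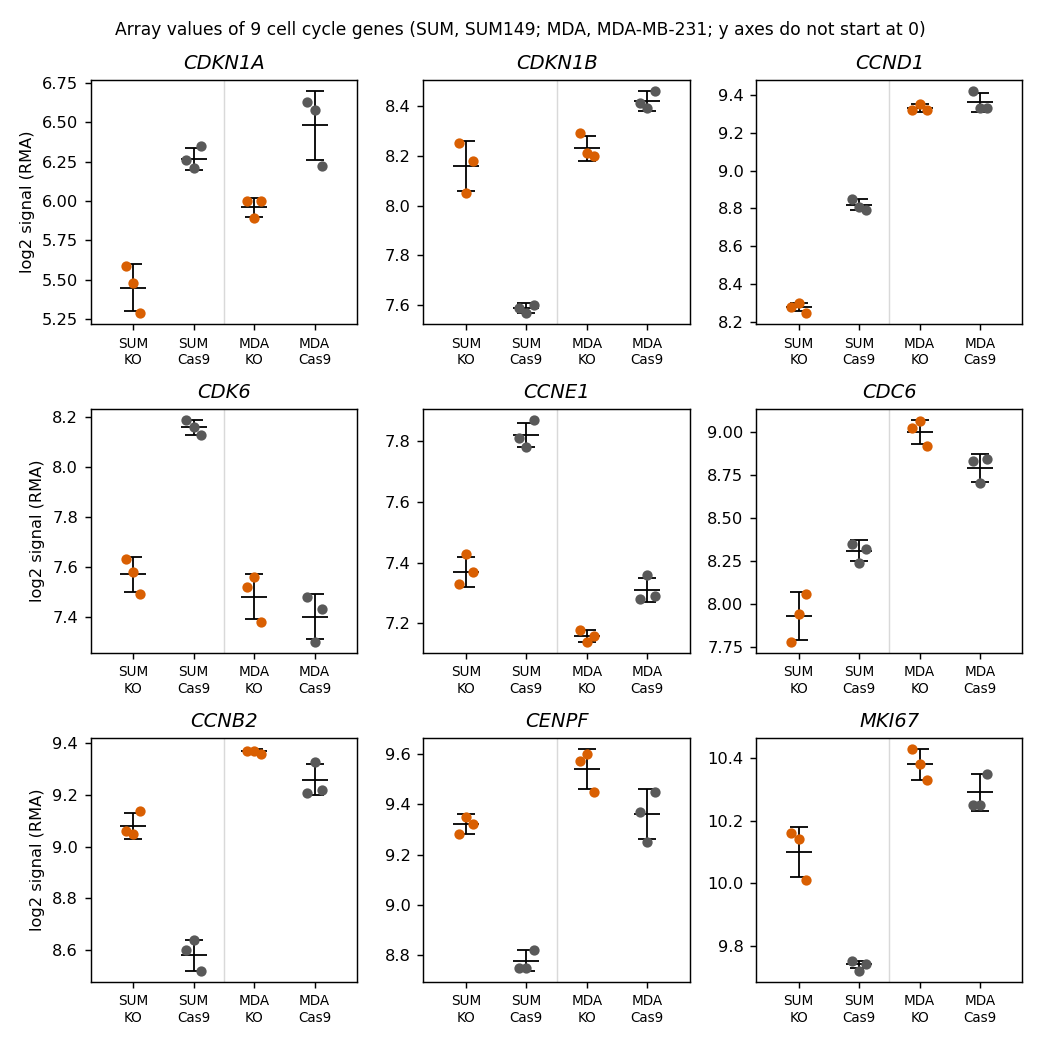
Log2 signal of 9 genes on every array, with AHR KO cells in orange and Cas9 controls in grey. The black bars give the mean and SD of 3 arrays. CDKN1A is lower in AHR KO cells of both lines, CDKN1B is higher in SUM149 AHR KO cells, and the CCND1, CDK6, CDC6, CCNB2, CENPF and MKI67 groups are further apart in SUM149 than in MDA-MB-231. CDC6 was added after its values had been seen.

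Of the 8 origin licensing genes, 1 rose in MDA-MB-231 and 7 were not called, while 1.73% of all genes were called higher in that line. CDT1 (ENSG00000167513_at), which brings the MCM2-7 helicase to origins, was the only one of the 40 genes called higher in that line. Its signals were 8.18 to 8.24 in MDA-MB-231 AHR KO cells and 7.84 to 7.94 in the controls, a rise of 0.30 (SE 0.06, adjusted p = 0.0205). That call was kept without MDA-MB-231 control replicate 1 and lost without each of the other 5 MDA-MB-231 arrays (highest adjusted p 0.0817). The other licensing differences in MDA-MB-231 lay between 0.04 for MCM3 and 0.23 for MCM2. In 7 of the 8 genes every MDA-MB-231 AHR KO array lay above every control. This held for 16 of the 40 genes and for 11.2% of all genes. The mean of the 8 genes, relative to the control mean, was 0.19, 0.15 and 0.18 on the MDA-MB-231 AHR KO arrays.

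In SUM149 the licensing genes went in different directions. CDC6 (ENSG00000094804_at), which loads the helicase together with CDT1, had signals of 7.78 to 8.06 in SUM149 AHR KO cells and 8.24 to 8.35 in the controls, a fall by 0.38 (SE 0.08, adjusted p = 0.00711). In MDA-MB-231 its signals were 8.92 to 9.06 in AHR KO cells and 8.70 to 8.84 in controls, a difference of 0.22 (adjusted p = 0.209). The effect on CDC6 was lower by 0.60 in SUM149 than in MDA-MB-231 (SE 0.12, adjusted p = 0.00569). MCM7 (ENSG00000166508_at), a subunit of the helicase, had signals of 9.42, 9.44 and 9.49 in SUM149 AHR KO cells, against 9.18, 9.15 and 9.19 in the controls, and rose by 0.28 (SE 0.06, adjusted p = 0.00769). Its MDA-MB-231 AHR KO signals were 9.53, 9.41 and 9.51, against 9.30, 9.26 and 9.39 in the controls, without overlap (difference 0.16, adjusted p = 0.193). Across both lines MCM7 was called higher by 0.22 (SE 0.05, adjusted p = 0.0333), and that call was kept in only 2 of the 12 fits without 1 array. The other MCM genes and CDT1 were not called in SUM149, with differences from -0.16 for MCM3 to 0.16 for MCM6. On the SUM149 AHR KO arrays the mean of the 8 genes was -0.01, 0.01 and 0.05.

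PCNA (ENSG00000132646_at), the sliding clamp of the replication fork, had signals of 10.78, 10.70 and 10.87 in SUM149 AHR KO cells, against 10.56, 10.53 and 10.44 in the controls. It rose by 0.27 (SE 0.06, adjusted p = 0.0107). In MDA-MB-231 AHR KO cells the signals were 10.18, 10.16 and 10.15, against 10.12, 10.07 and 10.13 in the controls, so close that the difference of 0.06 had an interval from -0.08 to 0.19. RRM2, a subunit of the enzyme that makes deoxynucleotides, differed by -0.21 in SUM149 and missed the threshold (adjusted p = 0.0579). It was called there when SUM149 control replicate 3 was left out. TYMS, the enzyme of thymidylate synthesis, was not called in either line.

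Of the 5 cyclin, kinase and factor genes of G2 to mitosis, 3 rose in SUM149 AHR KO cells (CCNB2, CCNA2 and FOXM1) and 0 fell. CDK1 and CCNB1 were not called. Of all genes, 8.59% were called higher and 8.23% lower in that line. CCNB2 (ENSG00000157456_at), for cyclin B2, had signals of 9.06, 9.05 and 9.14 in SUM149 AHR KO cells, against 8.60, 8.64 and 8.52 in the controls, a rise of 0.50 (SE 0.06, adjusted p = 0.000167). In MDA-MB-231 AHR KO cells they were 9.37, 9.37 and 9.36, against 9.21, 9.33 and 9.22 in the controls, a difference of 0.11 without overlap that was not called (adjusted p = 0.409). CCNA2 (cyclin A2) and FOXM1, a factor that drives mitotic genes, rose in SUM149 by 0.27 (SE 0.06, adjusted p = 0.00666) and 0.24 (SE 0.05, adjusted p = 0.0105). CDK1 (ENSG00000170312_at), the kinase that these cyclins drive into mitosis, had signals of 8.71, 8.66 and 8.73 in SUM149 AHR KO cells, against 8.53, 8.51 and 8.54 in the controls. Although the groups were apart, the difference of 0.17 was not called (SE 0.06, adjusted p = 0.107). In MDA-MB-231 the CDK1 signals overlapped, with 9.04, 8.89 and 8.93 in AHR KO cells and 8.97, 8.86 and 9.02 in controls. CCNB1, for cyclin B1, differed by 0.15 in SUM149 (adjusted p = 0.183) and was not called in MDA-MB-231 either.

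CENPF (ENSG00000117724_at), a kinetochore protein, had signals of 9.28, 9.35 and 9.32 in SUM149 AHR KO cells, against 8.75, 8.75 and 8.82 in the controls, a rise of 0.54 (SE 0.07, adjusted p = 0.000225). In MDA-MB-231 the groups met at 9.45, with 9.57, 9.60 and 9.45 in AHR KO cells and 9.37, 9.25 and 9.45 in controls (difference 0.18, adjusted p = 0.203). CENPE (ENSG00000138778_at), the kinetochore motor, had signals of 8.15, 8.11 and 8.12 in SUM149 AHR KO cells, against 7.77, 7.78 and 7.77 in the controls, a rise of 0.35 (SE 0.06, adjusted p = 0.00131). In MDA-MB-231 AHR KO cells they were 8.66, 8.55 and 8.59, against 8.49, 8.38 and 8.50 in the controls (difference 0.14, adjusted p = 0.246). KIF11, the motor that pushes spindle poles apart, also rose in SUM149 by 0.35 (SE 0.05, adjusted p = 0.000947). Thus 3 of 3 motor and kinetochore genes were called higher there, against 8.59% of all genes.

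Both chromatin genes of dividing cells rose in SUM149, where 8.59% of all genes were called higher. MKI67 (ENSG00000148773_at), which encodes the proliferation antigen Ki-67, had signals of 10.16, 10.14 and 10.01 in SUM149 AHR KO cells, against 9.75, 9.72 and 9.74 in the controls, a rise of 0.37 (SE 0.06, adjusted p = 0.00156). In MDA-MB-231 its groups overlapped, with 10.43, 10.38 and 10.33 in AHR KO cells and 10.25, 10.25 and 10.35 in controls, and the difference of 0.10 was not called (adjusted p = 0.505). TOP2A, topoisomerase II alpha, rose by 0.33 in SUM149 (SE 0.06, adjusted p = 0.00148).

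Of the mitotic kinases and spindle checkpoint genes, only TTK was called higher in SUM149. AURKB, the kinase of the chromosomal passenger complex, was lower by 0.19 in SUM149 (SE 0.06, adjusted p = 0.0443), and this call was kept in only 1 of the 12 fits without 1 array, that without SUM149 control replicate 2. AURKA and PLK1, which act at the spindle poles and in mitotic entry, differed by -0.12 each in SUM149 and were not called. Of the checkpoint and exit genes, TTK, the kinase MPS1, rose by 0.35 in SUM149 (SE 0.06, adjusted p = 0.00132), whereas BUB1, BUB1B and CDC20 were not called, with differences of 0.16, -0.10 and -0.11. For BUB1 the SUM149 groups were apart, at 9.07, 9.01 and 9.10 in AHR KO cells against 8.89, 8.92 and 8.89 in controls (adjusted p = 0.0789). The CDC20 and PLK1 groups were apart there in the other direction. None of these 7 genes was called in MDA-MB-231, where all 7 differences were positive and the widest was that of AURKA (0.24, adjusted p = 0.182). Over the 17 G2 and mitotic genes together, the mean relative to the control mean was 0.17, 0.18 and 0.20 on the SUM149 AHR KO arrays and 0.11, 0.09 and 0.08 on the MDA-MB-231 AHR KO arrays.

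**Figure D4:**
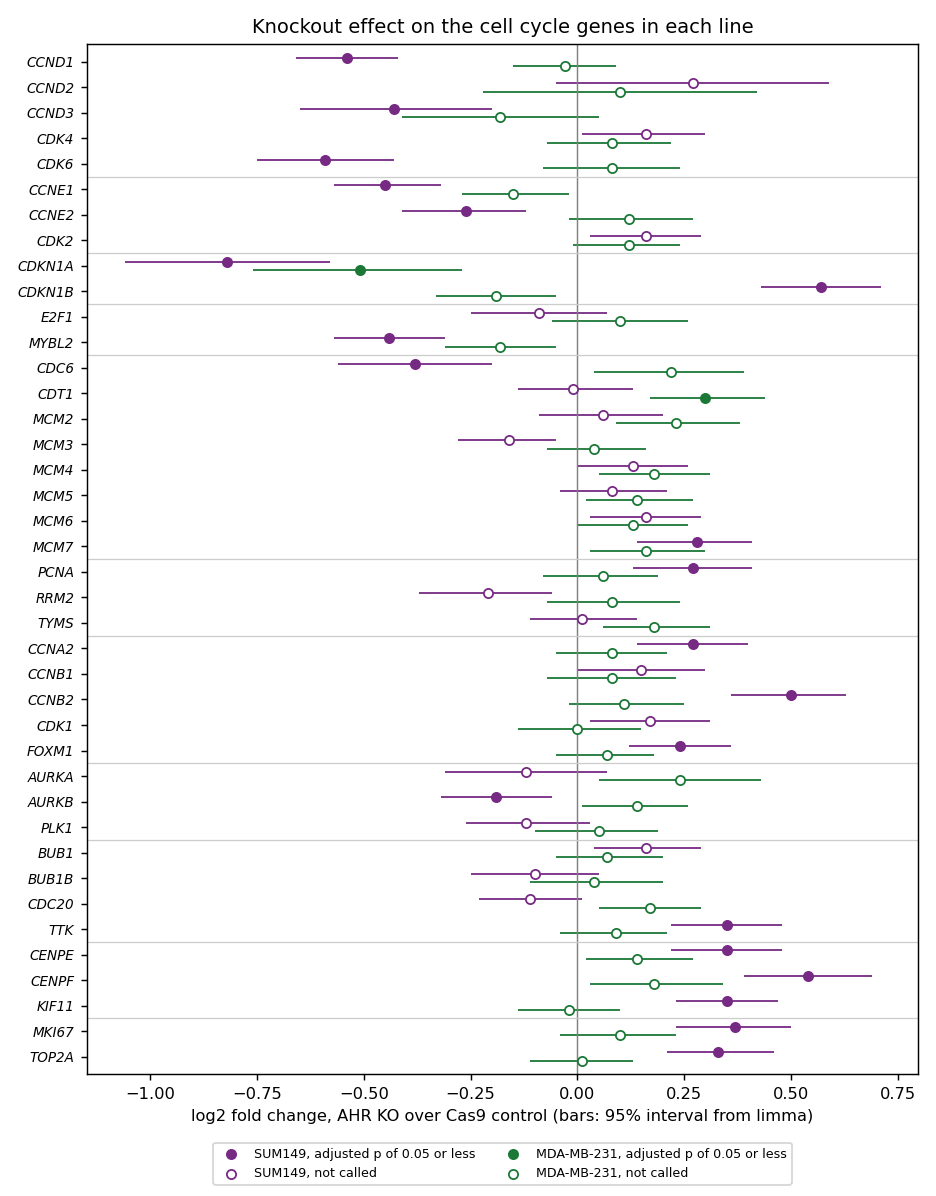
Log2 fold change of AHR KO over Cas9 control for the 40 genes in SUM149 (purple) and MDA-MB-231 (green), with 95% intervals from limma. Filled points passed an adjusted p of 0.05, as 21 genes did in SUM149 and 2 in MDA-MB-231. CDKN1A is the only gene with a filled point in both lines.

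Promoter motifs of the genes called in SUM149 can be set beside these changes. Of the 12 genes called higher, 10 had a window, of which 5 held a CHR and 9 a CCAAT box. Of the 9 called lower, 7 had a window, of which 0 held a CHR and 3 a CCAAT box. An AHR core was in 8 of the 10 and in 5 of the 7. Of all 31 genes with a window, 9 held a CHR, 21 a CCAAT box and 23 an AHR core. CDC20, BUB1B, PLK1 and CDK1 also held a CHR and were not called in SUM149. Of all windows, 15.2% held a CHR, 34.6% a CCAAT box and 36.5% an AHR core. Those shares count windows, whereas a gene counted here if any of its windows held the motif. All 9 genes with a CHR were G2 and mitotic genes, and AURKB was the only G2 or mitotic gene called lower. Motif and role therefore cannot be told apart in these counts, and a tie between motif and change was not tested.

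The fit across both lines called 4 genes higher (CCNB2, MCM7, CENPE and CENPF) and 3 lower (CDKN1A, CCNE1 and MYBL2), with 1.66% of all genes called higher and 2.12% lower (3.78% in either direction). CENPF had the widest rise, 0.36 (SE 0.07, adjusted p = 0.0187), a call lost without SUM149 control replicate 1 or 2 (highest adjusted p 0.0521). CCNB2 was higher by 0.30 (SE 0.07, adjusted p = 0.0387) and CENPE by 0.25 (SE 0.06, adjusted p = 0.0301), and these calls were kept in 5 and 4 of the 12 fits without 1 array. None of the 40 genes was called higher in both lines separately, as 0.299% of all genes were. An unadjusted limma p below 0.05 with a rise in both lines was found for 4 (MCM6, MCM7, CENPE and CENPF). The share of all genes that met this was not computed, so that count has no background to be read against. The trend and robust options gave 3 genes higher in both lines and 12 higher across them. Across the lines these options called 878 of all 31720 genes higher (527 in the main fit). Calls in both lines with these options were not counted over all genes. At the level of arrays, CCNB2, PCNA, MCM4, MCM6, MCM7, CENPE and TTK had every AHR KO array above every control in both lines, a pattern of 2.38% of all genes.

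The knockout effect differed between the lines for 13 genes. It was lower in SUM149 than in MDA-MB-231 for CDK6, CDC6, CCND1, CCNE2, AURKB, CDT1, CCNE1 and CDC20, and higher for CDKN1B, CCNB2, KIF11, CENPF and TOP2A, whereas 6.47% of all genes were called lower and 6.69% higher (13.2% in either direction). Besides CDKN1B and CDC6, the widest gaps were those of CDK6, -0.67 (SE 0.10, adjusted p = 0.00126), and CCND1, -0.51 (SE 0.08, adjusted p = 0.00115). The differences of CDKN1B, CDK6, CCND1, CDC6, CCNE2, CCNB2 and KIF11 were called in all 12 fits without 1 array, while the difference of TOP2A was called in 10 of them, that of AURKB in 7, CCNE1 in 3, CENPF in 3, CDC20 in 2 and CDT1 in 1. In 32 of the 40 genes the change was wider in SUM149, with a median absolute log2 change of 0.25 in SUM149 and 0.11 in MDA-MB-231. Over all genes these medians were 0.13 in SUM149 and 0.10 in MDA-MB-231. The sign differed between the lines in 14 genes, of which 12 were negative in SUM149 and positive in MDA-MB-231. None of the 14 was called in both lines. The share of all genes with opposite signs, or with the wider change in SUM149, was not computed. The counts of 14 and 32 therefore have no background to be read against.

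Without guides against AHR, the lines differed in most of these genes. In Cas9 control cells, 13 were higher and 18 lower in SUM149 than in MDA-MB-231, with 17.3% of all genes called higher and 18.1% lower (35.4% in either direction). Without the 10573 dimmest genes, 5495 of the 21147 genes kept were called higher and 5634 lower. Of the cell cycle genes, 13 were then higher and 19 lower. Every SUM149 control array lay above every MDA-MB-231 control array for 15 of the genes, against 21.4% of all genes, and below them for 20, against 24.0%. All 5 cyclin, kinase and factor genes of G2 to mitosis, all 3 motor and kinetochore genes, MKI67 and TOP2A were lower in SUM149 controls, by 0.23 (CCNA2) to 0.73 (TOP2A), whereas AURKA, AURKB and PLK1 were higher by 0.36 to 0.54. Among the others, MYBL2 was higher by 1.30 (SE 0.06, adjusted p = 8.96e-09), RRM2 by 1.06 (SE 0.07, adjusted p = 1.96e-07) and CDK6 by 0.75 (SE 0.07, adjusted p = 5.1e-06), and CDKN1B was lower by 0.83 (SE 0.06, adjusted p = 8.06e-07). The SUM149 control arrays enter both this comparison and the SUM149 knockout effect, so the values are only placed side by side. For CDK6, group means were 7.57 ± 0.07 in SUM149 AHR KO, 8.16 ± 0.03 in SUM149 control, 7.48 ± 0.09 in MDA-MB-231 AHR KO and 7.40 ± 0.09 in MDA-MB-231 control cells (SD, n = 3 each). MKI67 averaged 10.10 ± 0.08, 9.74 ± 0.01, 10.38 ± 0.05 and 10.29 ± 0.06 in the same order. Culture medium differed between the lines and cannot be told apart from the line.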

How the data were processed

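RNA of 12 cell cultures in 4 groups of 3 was labelled with biotin and hybridised to Affymetrix arrays. Per the submitters' processing notes, which name RMA, affy 1.48.0 and R 3.2.3, the authors computed and deposited RMA signals on the log2 scale for 31720 Ensembl gene IDs. RMA's quantile step evens out the arrays, which hides any common shift of most genes. The probe sets and build are not given in the labels or methods. The arrays carry no read depth, and their number limits the precision. Within groups, arrays correlated at 0.9939 or above, and no pair was identical.

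The values were used as deposited, without a filter. With limma 3.58.1 (R 4.3.3, lmFit and eBayes) a model of 4 group means (8 residual degrees of freedom) gave the effect in each line, the difference between the lines and the difference between controls, and a model of line plus knockout (9 degrees of freedom) the effect across both lines. P-values were adjusted over all 31720 genes by the Benjamini-Hochberg method and called at 0.05 or less. Exact permutation of 3 arrays against 3 cannot give a p below 0.1. The fit was also run on simulated data with independent noise on each array. Such data cannot show whether the replicates of a group share a clone. Tables and figures were made with Python 3.11.15, pandas 2.3.3 and matplotlib 3.10.9.

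The genes, role groups and motifs were chosen with earlier results of these data known. Values of every array are printed for genes called in both lines, called in 1 line with an absolute log2 change of 0.5 or more, or called across the lines, and for CDKN1A, CCND1, CCNE1, MKI67, PCNA and CDK1. Others are given by range or fold change. No table used here pairs other IDs with symbols, so AHR, its targets, markers of the lines and further cell cycle genes were not analysed here. Same-numbered replicates did not deviate together (r from -0.017 to 0.035, 0 of 6 pairs above 0.1) and were treated as unpaired. In total, 20 alternatives were tried, 12 of which leave out 1 array.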

Additional observations from a re-analysis of the deposited data

Results flagged for a closer look

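The knockout effect (AHR KO minus Cas9 control, log2) differed between SUM149 and MDA-MB-231 at an adjusted p of 0.05 or less (limma interaction contrast) for 13 of the 40 genes, with 13.2% of all genes called in either direction. As SUM149 minus MDA-MB-231, the difference was 0.76 for CDKN1B, 0.39 for CCNB2, 0.37 for KIF11, 0.36 for CENPF and 0.32 for TOP2A. It was -0.67 for CDK6, -0.60 for CDC6, -0.51 for CCND1, -0.39 for CCNE2, -0.33 for AURKB, -0.31 for CDT1, -0.30 for CCNE1 and -0.28 for CDC20. The fitted effects had opposite signs in the lines for CDKN1B, KIF11, CDK6, CDC6, CCNE2, AURKB, CDT1 and CDC20. None of these genes was called in both lines, and CDC20 was called in neither. In MDA-MB-231 the effect was -0.02 for KIF11 (limma adjusted p = 0.899) and 0.08 for CDK6 (0.671). In SUM149 it was -0.01 for CDT1 (0.959). The called difference was lost in 14 alternatives for CDT1, 15 for CDC20, and 12 each for CCNE1 and CENPF. For CDKN1B, CDK6 and CDC6 it was lost in 0.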

How the results depend on the processing

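No direction of a called gene turned under any alternative. Counts that left 1.5 times their value follow, out of 40 genes. With a variance trend and robust moderation, MDA-MB-231 had 3 genes lower (main value 1) and 9 higher (main 1), and SUM149 had 19 higher (main 12). The fit across both lines then had 12 higher (main 4), and the difference between the lines 13 lower (main 8) and 11 higher (main 5). In each of the lines, 2 genes were lower and 3 higher (main 1 and 0). Over all genes, these options gave 1151 lower and 1162 higher in MDA-MB-231 (main 694 and 549) and 3187 higher in SUM149 (main 2724). They gave 878 higher across both lines (main 527), and 2646 lower and 2589 higher for the difference (main 2051 and 2122).

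With the replicate number as a block, MDA-MB-231 had 0 lower and 0 higher, the fit across both lines 1 lower (main 3) and 0 higher, and the difference 4 lower and 1 higher, and 0 genes were lower in each of the lines. Calls over all genes fell too, to 317 lower and 199 higher in MDA-MB-231 (main 694 and 549). They fell to 119 lower and 44 higher across both lines (main 671 and 527), and to 1348 and 1426 for the difference (main 2051 and 2122). Residual degrees of freedom then number 4, the numbers did not pair the arrays, and the control cells of the 2 lines could not be compared with this block. At an adjusted p of 0.01 or less, MDA-MB-231 had 0 lower and 0 higher, the fit across both lines 1 lower and 0 higher, and the difference 3 lower and 2 higher, and 0 genes were lower in each of the lines. A minimum of 1.5-fold left 0 lower and 0 higher for MDA-MB-231, 2 lower and 0 higher for SUM149, 1 lower and 0 higher across both lines, 2 lower and 1 higher for the difference, and 5 lower and 6 higher between the control cells (main 18 and 13), and 0 genes lower in each of the lines. Of all genes, this minimum left 227 lower and 141 higher for MDA-MB-231, 805 and 770 for SUM149, and 148 and 89 across both lines. It left 977 and 1075 for the difference, and 2756 and 2997 between the control cells. When each line was fitted on its own arrays, MDA-MB-231 had 0 lower and 0 higher, and 0 genes were lower in each of the lines. Without the dimmest 33.3% of genes, MDA-MB-231 had 3 higher, beside 820 of all 21147 genes kept.

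Without 1 array at a time, MDA-MB-231 had 0 to 1 lower and 0 to 1 higher, SUM149 7 to 9 lower and 12 higher, the fit across both lines 2 to 4 lower and 0 to 5 higher, the difference 4 to 7 lower and 3 to 5 higher, and 0 to 1 genes were lower in each of the lines. The cause of these shifts was not tested.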
